A study of Mus musculus with 2 samples.

Results

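The 10 genes described here encode the ATG8 proteins Map1lc3b, Gabarap and Gabarapl2, the protease Atg4b, and the enzymes and adaptors that attach ATG8 proteins to lipid, which are Atg7, Atg3, Atg10, Atg12, Atg5 and Atg16l1. They were taken as a named list, by function and not by a measured value, from 20564 mouse protein-coding genes with a known strand on chromosomes that carry USF1 regions. The list was chosen with earlier results of these data known. It is not the full ATG8 system, and 8 other ATG8 and conjugation or docking genes are described apart from it. USF1 binding was measured by ChIP-seq, in which chromatin held by an antibody is sequenced. There was 1 group, with 2 biological replicates of CH12.LX, an immortalised B-cell lymphoma line from a female mouse of strain B10.H-2aH-4bp/Wts, grown with no treatment named in the labels. The data therefore describe 1 line and hold no contrast between conditions. No control library was analysed here.

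The deposited files are lists of regions, each with a summit, which is the position of highest signal, and the authors' signal value, whose scale is not given. The mm10 lists thresholded for reproducibility held 8108 regions (optimal) and 7356 regions (conservative). Before thresholding, replicate 1 had 25978 regions, replicate 2 had 44551, and the list from both replicates together had 300000. An mm9 list from both replicates held 10624 peaks. Signal reached 640 in the mm10 lists made from both replicates, 321 in replicate 1, 328 in replicate 2 and 7241 in mm9, so values were compared only within a list. The sources used here give no read counts, so the depth behind these values is unknown.

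In macroautophagy, a membrane grows around cytoplasmic cargo and fuses with the lysosome. ATG8 proteins are small ubiquitin-like proteins that are fixed to this membrane: Atg4b trims them, the E1-like enzyme Atg7 activates them, the E2-like enzyme Atg3 carries them, and the Atg12-Atg5-Atg16l1 complex promotes their transfer to phosphatidylethanolamine. USF1 is a basic helix-loop-helix leucine zipper factor that binds the canonical E-box CACGTG, which is also read by the MiT factors TFEB and TFE3, known regulators of lysosomal and autophagy genes.

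The sequences under the strongest summits near the starts of bound genes are shown first, because they hold the E-boxes to which the results below refer. They were read from the NCBIM37 (mm9) genome, each 5′ to 3′ on the gene's own strand, with canonical CACGTG and CA-centred CACATG E-boxes in capitals. Windows reach up to 50 bp to each side of the summit and stop short of annotated exons, and for Atg5 only 30 bases around the E-box are given. Atg3 (chr16:45158820-45158897, plus strand) had 2 canonical E-boxes, and Gabarap (chr11:69804490-69804590, plus strand) had 1 of each kind. Gabarapl2 (chr8:114463759-114463859, plus strand), Atg10 (chr13:91363333-91363433, minus strand) and Atg5 (chr10:43988119-43988148, plus strand) had 1 canonical copy each. Map1lc3b (chr8:124114273-124114337, plus strand) had neither, and its capitals mark instead the GC box GGGCGG, which reads CCGCCC on this strand.
Atg3: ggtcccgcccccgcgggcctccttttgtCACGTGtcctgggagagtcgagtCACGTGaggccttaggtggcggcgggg
Gabarap: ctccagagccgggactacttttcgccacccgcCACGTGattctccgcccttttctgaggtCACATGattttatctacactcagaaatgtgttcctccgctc
Gabarapl2: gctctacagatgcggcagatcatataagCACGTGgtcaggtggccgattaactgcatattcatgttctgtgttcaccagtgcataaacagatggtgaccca
Atg10: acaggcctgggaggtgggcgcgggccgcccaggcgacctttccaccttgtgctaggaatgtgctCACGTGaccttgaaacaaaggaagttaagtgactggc
Atg5: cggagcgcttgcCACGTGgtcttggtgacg
Map1lc3b: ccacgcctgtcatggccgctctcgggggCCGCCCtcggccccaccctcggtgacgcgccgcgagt

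Genes are called bound here if their RefSeq start had an optimal summit within 1 kb on either side. USF1 was bound at 6 of the 10 genes: Map1lc3b, Gabarap, Gabarapl2, Atg3, Atg10 and Atg5. Over all 20564 genes, 2368 were bound (11.5%, 95% Wilson interval 11.1 to 12.0, covering counting error only). They comprise all 3 ATG8 proteins of the list, both E2-like enzymes, and Atg5 of the Atg12-Atg5-Atg16l1 complex. Atg4b, Atg7, Atg12 and Atg16l1 had no optimal summit within 1 kb of their starts. The same 6 genes were bound in the conservative list (10.8% of all genes) and within 5 kb in place of 1 kb (16.1%). They were again the bound ones when every annotated 5′ end was used, within 1 kb (12.9%) or 5 kb (17.0%), and among the strongest regions of replicate 1 alone (11.6%) or replicate 2 alone (11.9%), taken in the same number as the optimal list. At a limit of 500 bp 4 stayed bound (9.98% of all genes), since the summits of Gabarapl2 and Atg10 lay farther from the start. In mm9, with every protein-coding transcript start, Atg12 was added and 7 were bound (14.3% of 22219 genes).

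Where these genes were bound, each had more signal than the typical bound gene. The 6 promoter regions had a median signal of 385 in the optimal list, with quartiles at 214 and 516, and the median over all 2368 bound genes was 133, with quartiles at 58.9 and 352. The lowest of the 6, Gabarapl2 at 181, was above that median. Atg3 ranked 109 among the bound genes, Gabarap 163 and Atg5 337, while Atg10 ranked 721, Map1lc3b 1003 and Gabarapl2 1019. In the optimal list the 6 therefore fell into a stronger set of 3 (signal 472 to 552), a weaker set of 2 ATG8 genes (181 and 187), and Atg10 between them at 297. The mm9 list did not keep this grouping. There the Map1lc3b promoter peak (694, rank 718) stood above those of Atg10 (471, rank 996) and Gabarapl2 (244, rank 1732). No test was made of these differences, and each gene's values in the 2 replicates are given below.

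**Figure D1:**
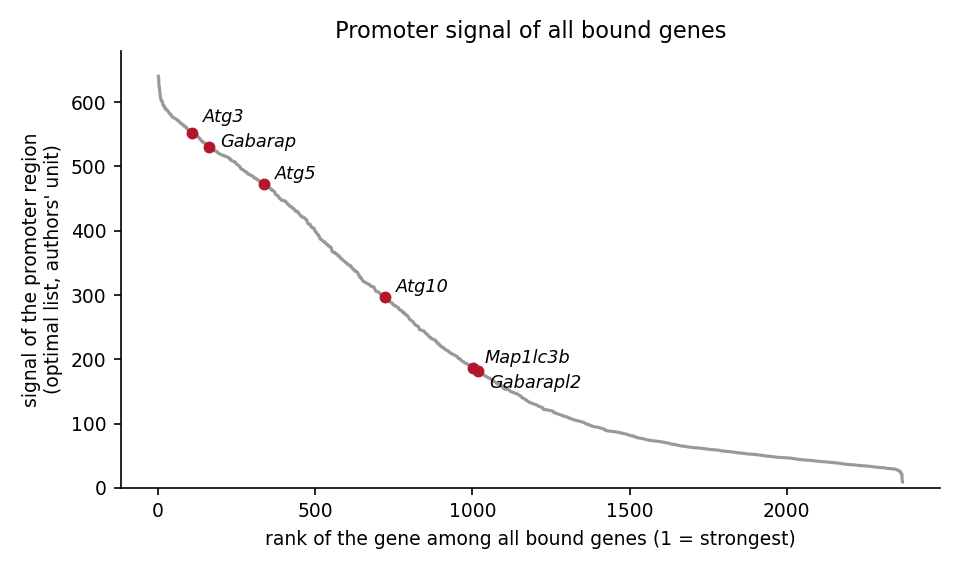
Signal of the strongest optimal region within 1 kb of the start (vertical axis, authors' unit) against rank among the 2368 bound genes (horizontal axis, 1 is strongest); the grey line is all bound genes and the red points are the 6 bound genes of the ATG8 system. Atg3, Gabarap and Atg5 sit at ranks 109, 163 and 337, Atg10 at 721, and Map1lc3b and Gabarapl2 side by side at 1003 and 1019.

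Among the ATG8 proteins, Gabarap, which acts late in autophagosome formation and in receptor trafficking, carried the strongest region. Its signal was 254 in replicate 1 and 281 in replicate 2, a mean of 268 ± 19.1 (SD, n = 2), and 531 in the optimal list, where it ranked 166 of 8108. The replicates lay close together, with a log2 ratio of replicate 2 over replicate 1 of 0.15. The mm10 summit was at chr11:69991046, 324 bp upstream of the RefSeq start. In mm9 the annotated start lies nearer, and the summit was 105 bp upstream of it, with a signal of 2256 at rank 120 of 10624. A weaker mm9 peak (signal 47.2) lay in exon 1, with neither E-box within 50 bp.

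Map1lc3b encodes LC3B, the ATG8 protein most used as a marker of autophagosomes. Its promoter region had a signal of 76.1 in replicate 1 and 110 in replicate 2, a mean of 93.2 ± 24.1 (SD, n = 2), with a log2 ratio of 0.53, the widest of the 6 promoters. In the optimal list the signal was 187 (rank 1678), at chr8:121590388, 50 bp upstream of the start. In mm9 the summit was 45 bp upstream, with a signal of 694 at rank 718, above the promoter peak of Atg10 (471). The gene also had an upstream region, 4.85 kb before the start, with a signal of 58.0 in replicate 1, 88.5 in replicate 2 and 126 in the optimal list. A weak region 1227 bp inside the gene was in the conservative list only, with a signal of 41.8, and of 21.4 and 17.3 in replicates 1 and 2. In the thresholded mm10 lists, Map1lc3b was thus the only member with several regions within 5 kb of its start. The strongest of these held no E-box in mm9, and the weakest did: the intron 1 sequence at chr8:124115547-124115576 (plus strand) is shown because it was the only E-box found at the gene's 3 summits, with CACGTG in capitals.
Map1lc3b intron 1: tttagaactgatCACGTGatttcaggcttc

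Gabarapl2 encodes GATE-16, an ATG8 protein also known from transport within the Golgi. Signal was 76.6 in replicate 1 and 101 in replicate 2, a mean of 88.7 ± 17.1 (SD, n = 2), and 181 in the optimal list (rank 1731). The values of Gabarapl2 and Map1lc3b overlapped, and their order differed between the replicates. The summit at chr8:111939911 was 792 bp upstream of the start, the most distant of the 6 on the upstream side. In mm9 it was 794 bp upstream, with a signal of 244 at rank 1732.

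Atg4b, the main cysteine protease that exposes the carboxy-terminal glycine of ATG8 proteins, had no region within 1 kb of its start in either replicate's own list. Of all genes, 23.8% had such a region in replicate 1 and 34.4% in replicate 2. The unthresholded list of both replicates held 4 weak regions there, the strongest with a signal of 7.91 at rank 103577 of 300000. In that list 56.1% of all genes had a region within 1 kb, so an entry there is common. The nearest optimal summit was 47.2 kb downstream of the start, with a signal of 211.

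Atg7, the E1-like enzyme for both ATG8 proteins and Atg12, was not bound at its start but was bound inside the gene. Within 1 kb of the start neither replicate had a region, and the strongest entry in the unthresholded list was 9.53 (rank 57404). Across its 217 kb there were 3 optimal summits, at 136, 147 and 189 kb from the start. At 136 kb the signal was 105 in replicate 1, 124 in replicate 2 and 228 in the optimal list. The region at 147 kb was the weakest, at 19.8 and 33.9 in the replicates and 56.2 in the optimal list. At 189 kb the signal was 81.3 in replicate 1 and 164 in replicate 2, a mean of 123 ± 58.4 (SD, n = 2), and 245 in the optimal list. This last region differed between replicates by a log2 ratio of 1.01, the only one of the members' 13 optimal regions to differ by more than 2-fold. Of all optimal regions found in both replicates, 7.2% differed by that much.

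All 3 internal Atg7 summits lay in intron 18 of its longest mm9 transcript of 19 exons. Their sequences are given because all thresholded regions of Atg7 lay there. The summit at 136 kb held the canonical E-box, and the other two held only the CA-centred E-box, which reads CATGTG on the gene's strand at 189 kb. The 30 bases around each lie at chr6:114728849-114728878, chr6:114740159-114740188 and chr6:114782013-114782042 (NCBIM37, plus strand), with the E-box in capitals.
Atg7 at 136 kb: agtcatgcctgtCACGTGgctcccgtttcc
Atg7 at 147 kb: caaagattaaatCACATGacttctctgaac
Atg7 at 189 kb: gccaacaggagtCATGTGatcacattagag

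Atg3, the E2-like enzyme that hands ATG8 proteins to lipid, had the strongest promoter region of the 10 genes. Signal was 269 in replicate 1 and 287 in replicate 2, a mean of 278 ± 12.5 (SD, n = 2), with a log2 ratio of 0.09, the smallest of the 6 promoters. In the optimal list it was 552 at rank 107, with the summit at chr16:45158764, 65 bp upstream of the start. In mm9 the peak had a signal of 4750 and ranked 6 of 10624. Within the mm9 list Atg3 (4750) stood well above Gabarap (2256), whereas within the optimal list the 2 genes had 552 and 531.

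The Atg3 region is shared with Slc35a5, a nucleotide sugar transporter family gene on the opposite strand, whose start lay 91 bp from the mm10 summit. The region cannot be assigned to either gene. Among all bound genes, 519 of 2368 (21.9%) shared their strongest promoter region with another gene, and of the 6 members Atg3 alone did. In signal, the genes ranked next to Atg3 were Eaf2 and Golgb1 just above (552.09 each, 0.42 more) and Rpl23 just below (551.46), with Slc35a5 tied; this likeness is in signal alone, in 1 cell line.

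Atg10, the E2-like enzyme that joins Atg12 to Atg5, had a signal of 131 in replicate 1 and 167 in replicate 2, a mean of 149 ± 25.5 (SD, n = 2), and 297 in the optimal list (rank 974). Both replicates placed it below Atg5 and above Map1lc3b and Gabarapl2. The summit at chr13:91223771 lay 954 bp downstream of the outermost RefSeq start and 216 bp downstream of the other 5′ end of the gene. In mm9, whose annotation starts at the latter, it was 209 bp into the gene, in intron 1, with a signal of 471 (rank 996). A weak internal region 178 kb from the start, in intron 3 in mm9, had signals of 15.3 and 18.2 in the replicates and 34.0 in the optimal list.

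The Atg12-Atg5-Atg16l1 complex acts as the E3-like enzyme for ATG8 proteins, and its 3 genes differed in USF1 signal. Atg5, the protein to which Atg12 is joined, had 222 in replicate 1 and 252 in replicate 2, a mean of 237 ± 21.2 (SD, n = 2), and 472 in the optimal list (rank 370). Its summit at chr10:44268348 lay 26 bp downstream of the start, and its mm9 signal was 1166 (rank 424). The gene had 2 more optimal summits inside, at 57.7 kb (57.1 and 53.3 in the replicates, 113 in the optimal list) and at 62.3 kb (48.1 and 34.8, and 82.4). These 2 were the only optimal regions of the 10 genes with a lower signal in replicate 2. Both lay in intron 6 in mm9. Their E-boxes, CA-centred at 57.7 kb and canonical at 62.3 kb, are shown for comparison with those of Atg7. In that order, the printed bases lie at chr10:44045839-44045868 and chr10:44050458-44050487 (NCBIM37, plus strand).
Atg5 at 57.7 kb: tggtggagaggtCATGTGataggccgacac
Atg5 at 62.3 kb: tggtttcttcgtCACGTGggacttccagtg

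Atg12, the ubiquitin-like protein of the complex, was at the edge of detection. Near its start each replicate had a region, with a signal of 13.9 in both, at rank 9727 of 25978 in replicate 1 and 11030 of 44551 in replicate 2. In the list of both replicates the signal was 31.4 (rank 8869), 17 bp upstream of the start, and this region was in neither thresholded list. For comparison, 5% of optimal regions had a signal below 31.7. The mm9 list did hold a peak there, with a signal of 34.4 at rank 9064 of 10624, 199 bp upstream of Atg12 and 139 bp from the start of Ap3s1, an adaptor complex subunit gene. It had neither E-box. The nearest optimal summit was 217 kb upstream.

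Atg16l1, which anchors the complex to the membrane, had no region within 1 kb of its start in either replicate. Its strongest entry in the unthresholded list had a signal of 9.21 (rank 64689). The nearest optimal summit was 93.4 kb downstream, with a signal of 98.5. Atg4b, Atg7 and Atg16l1 thus had no entry at their starts in either replicate, whereas Atg12 had one in each.

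**Figure D2:**
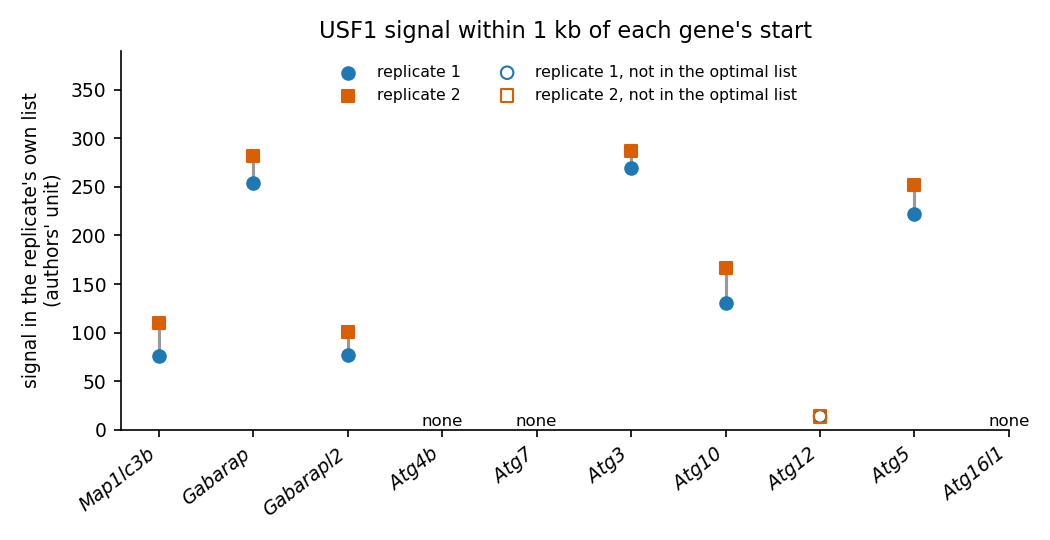
Signal of the strongest region within 1 kb of each gene's start (vertical axis, authors' unit) in the own list of replicate 1 (blue circles) and replicate 2 (orange squares) for the 10 genes; open symbols mark a gene not bound in the optimal list, and "none" marks no region in either list. Atg3, Gabarap and Atg5 lie between 222 and 287, Atg10 at 131 and 167, Map1lc3b and Gabarapl2 between 76.1 and 110, and Atg12 at 13.9 in both.

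The order of the 6 promoters was the same in both replicates except at the bottom, where Map1lc3b (76.1) and Gabarapl2 (76.6) stood close together in replicate 1. Replicate 2 was higher at all 6, with a median log2 ratio of 0.27 and a range of 0.09 to 0.53. Replicate 2 was also higher at 68.8% of the 8054 optimal regions found in both replicates, whose median log2 ratio was 0.18 with an SD of 0.50. The 6 ratios therefore lay within 1 SD of the median over all regions. All 13 optimal regions of the 10 genes were found in both replicates, as were 8054 of all 8108 optimal regions. All 13 were also in the conservative list, which held 7356 regions beside the 8108, and 11 were higher in replicate 2. None of the 6 promoters and 1 of the 13 member regions (7.69%) differed more than 2-fold. Of the 8054 regions 580 (7.2%) did, so the member counts are near this background.

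Beyond promoters, the 10 genes held 6 optimal summits inside them at more than 1 kb from the start, in Atg7, Atg5 and Atg10. Of all genes, 11.3% had at least 1 such summit. The 3 are the only members longer than 50 kb, and of all genes over 50 kb, 26.9% had such a summit. Per length, the 10 genes held 0.825 internal summits per 100 kb over 727 kb, all genes held 0.323, and genes over 50 kb held 0.261. With 6 summits, 3 of them in Atg7, this density rests on few sites.

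**Figure D3:**
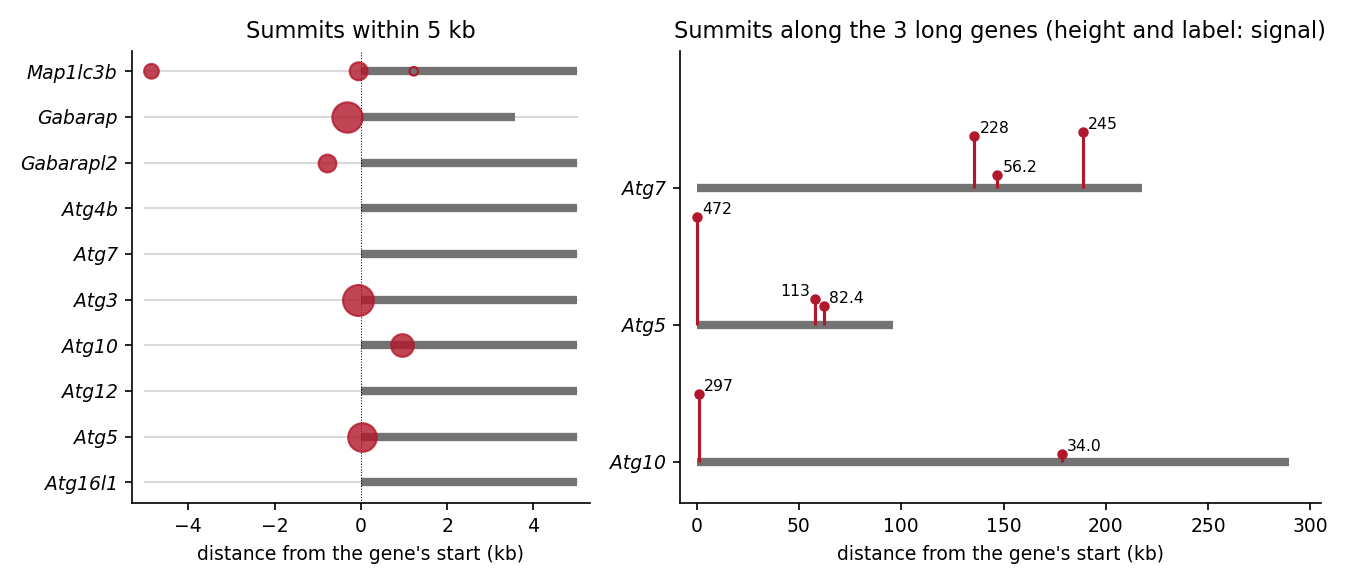
Optimal summits by distance from the gene's start in kb (horizontal axes), with gene bodies as dark bars. Left, within 5 kb for all 10 genes, where the area of a point grows with signal and the open circle is the Map1lc3b region of the conservative list only; right, along Atg7, Atg5 and Atg10, where height and label give the optimal signal, from 34.0 in Atg10 to 472 at the Atg5 start.

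The canonical E-box CACGTG lay within 50 bp of the mm9 promoter summit at 5 of the 6 bound genes, Map1lc3b being the exception. It was found at 56.7% of all 3082 mm9 promoter summits, and at 79.4% of those among the strongest 20% of the mm9 list, to which all 6 of these peaks belong. With neither E-box, Map1lc3b falls with 11.5% of the promoter peaks in that stretch of the list. The 9 other mm9 summits of the 10 genes comprised 4 canonical, 3 CA-centred only and 2 neither (1 of the 2 is the exon 1 peak of Gabarap, and the other is the peak 4886 bp upstream of Map1lc3b), with the Atg12 peak, also neither, counted apart. Of the 8 summits more than 1 kb from a start, 4 had CACGTG, and 51.8% of all 7542 such mm9 summits did. Another 3 of the 8, all inside Atg7 and Atg5, had only the CA-centred E-box, as did 37.3% of all such mm9 summits.

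**Figure D4:**
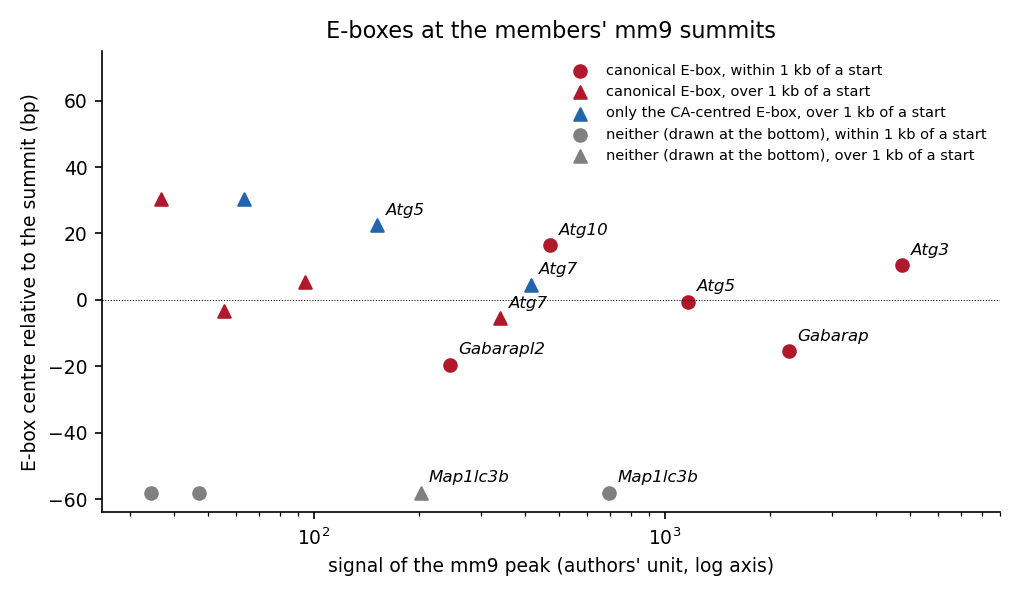
Distance in bp from the mm9 summit to an E-box centre (vertical axis) against the signal of the peak (horizontal log axis, authors' unit). The 16 mm9 summits of the 10 genes are shown. The E-box is the nearest CACGTG (red) or, at summits without CACGTG, the nearest CACATG (blue). Summits with neither are grey and drawn at the bottom with no offset. Circles lie within 1 kb of a start and triangles farther away. The 5 promoter summits with CACGTG have it within 20 bp, and Map1lc3b at 694 is the strongest peak with neither.

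The bases beside the E-box differed among the promoters. Around the CACGTG copy nearest the summit, Atg3 and Atg10 had TCACGTGA, Gabarap had CCACGTGA, Atg5 had CCACGTGG and Gabarapl2 had GCACGTGG. Over all promoter summits with CACGTG, TCACGTGA made up 18.5% (median mm9 signal 924), CCACGTGA 26.4% (478), CCACGTGG 11.4% (106) and GCACGTGG 11.1% (79.5), each pooled with its reverse complement. Atg3 and Gabarap, at 4750 and 2256, were above the median of their class, and so were Atg5 at 1166 and Gabarapl2 at 244. Atg10, at 471, was below the TCACGTGA median. The other Atg3 copy was TCACGTGT, centred 23 bp upstream of the first, and the mm9 summit lay between them, 12.5 bp from the upstream copy and 10.5 bp from the downstream copy.

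Further motif strings were searched on both strands in the same 6 promoter windows. The palindrome TCACGTGA, which contains CACGTG, was present at Atg3 and Atg10 (11.2% of all promoter windows), and the same string extended by G before it and C after it at none (4.02%). ATCACGTG, which also contains CACGTG, was present at Gabarap only (8.79%). The GC box GGGCGG was found at 5 of 6, all but Gabarapl2, and at 34.7% of all promoter windows. The cyclic AMP response element TGACGTCA was found at Atg5 (2.04%), while the ETS string CCGGAAG (8.27%) and the FOXO string GTAAACA (1.04%) were found at none. CACATG occurred at Gabarap (15.2%). A match is a description of the letters and not evidence of binding by any factor.

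An E-box near a start did not by itself mark the bound genes. In mm9, CACGTG lay within 500 bp of an annotated start at 21.9% of all genes, and at 5 of the 10 here. Atg3, Atg5, Atg10 and Gabarap were bound, whereas Atg4b had a copy centred 93.5 bp downstream of the first of its 3 mm9 starts and was not. The mm10 call for Atg4b used 1 RefSeq start, which need not be that first mm9 start. Of all genes with such a copy 37.8% were bound in mm9, and 7.72% of those without it were. Map1lc3b, Gabarapl2 and Atg12 were bound in mm9 with no copy within 500 bp of a start, and Atg7 and Atg16l1 were not bound and had no copy within 500 bp of their mm9 starts. The ratio of observed to expected CpG around the first start (500 bp to each side) was lowest at Atg4b, at 0.268, against a median of 0.596 over all genes and 0.776 over bound genes. It was 0.583 at Gabarap and between 0.686 and 0.954 at the other 8, the highest being at unbound Atg16l1. The 300 bases around the start given by RefSeq for mm10 (GRCm38.p6) were on hand for 8 of the 10 genes, not Atg12 and Atg16l1. For 7 of the 8, all but Atg7, the same letters stand in mm9. The RefSeq window of Atg7, around the inner of its 2 mm10 starts, did hold 1 CACGTG. In these RefSeq windows the nearest E-box lay 3.5 bp from the mm10 summit at Atg3 and 20.5 bp at Atg5, both upstream.

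In the rest of the autophagy pathway, 10 of 36 other genes (27.8%) were bound, where the share over all genes was 11.5%. The lists of single steps are short, so that a count of 0 in 5 or 8 genes is near this background, and differences between steps were not tested. None of the 8 other ATG8 and conjugation or docking genes was: Map1lc3a, Gabarapl1, Atg4a, Atg4c, Atg4d, Atg16l2, Wipi2 and Tecpr1. Thus of the 5 ATG8 genes measured, Gabarap, Map1lc3b and Gabarapl2 were bound, while Gabarapl1 was 14.3 kb from the nearest optimal summit (signal 86.4) and Map1lc3a 198 kb (240). None of the 4 Atg4 protease genes was bound. The ULK1 complex, the kinase that starts autophagy, had 0 of 5 bound (Ulk1, Ulk2, Atg13, Rb1cc1 and Atg101), although the mm9 list held a weak peak at Atg13 (30.4).

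Bound genes were found in the class III PI3-kinase complexes, which mark the forming membrane with phosphatidylinositol 3-phosphate. There 3 of 8 were bound, Uvrag at 506, Nrbf2 at 430 and Atg14 at 392, and Becn1, Pik3c3, Pik3r4, Rubcn and Ambra1 were not. Rubcn was bound when every annotated 5′ end was used, which made it 4 of 8. Among the ATG9 and ATG2 genes of lipid supply, Wipi1 (197) and Atg2b (93.9) were bound and Atg9a, Atg2a, Wdr45 and Wdr45b were not. Of 9 cargo receptors 5 were bound, Bnip3l at 321, Tollip at 137, Calcoco1 at 48.1, Nbr1 at 47.3 and Optn at 40.0. Tax1bp1, Ncoa4 and Fundc1 were not bound, although the mm9 list held a weak peak at Ncoa4 (42.4). Sqstm1, which encodes p62 and was not bound within 1 kb, had a region 2405 bp upstream of its start with a signal of 181. The 10 bound genes had a median signal of 167, and Atg3 and Gabarap lay above all of them. Whether these genes differ from the 10 members beyond the choice of lists was not tested.

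**Figure D5:**
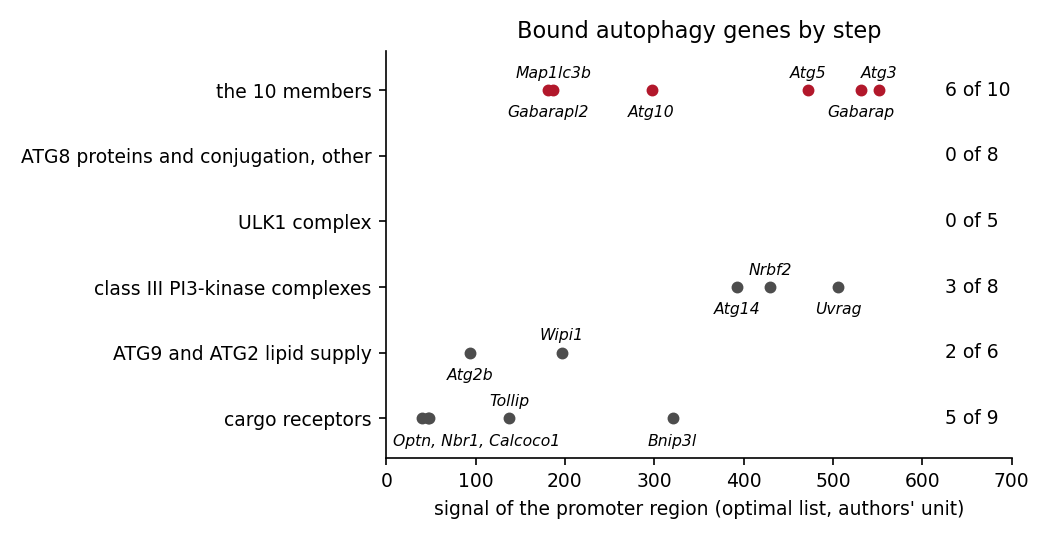
Signal of the strongest optimal region within 1 kb of the start (horizontal axis, authors' unit) for each bound autophagy gene, by step of the pathway. Red points are the 6 bound genes of the 10 members, and dark points are bound genes of the other lists. The right margin gives bound genes of all genes in the list. The 6 red points span 181 to 552, and the lists of other ATG8 genes and of the ULK1 complex are empty.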

How the data were processed

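USF1 ChIP-seq region lists of 2 biological replicates were used. Per the deposited readme files, the authors made relaxed mm10 lists for each replicate and for both together, derived the optimal and conservative lists from these by IDR thresholding with a further file that is not described, and made the mm9 list from both replicates' alignments. Caller, aligner and thresholds: not given in the sources used here. Signal is the authors' deposited value, used unscaled, and depth is unknown. There is 1 group, and no test was made. Intervals of shares are 95% Wilson intervals.

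Summits were assigned to RefSeq starts (GRCm38.p6), whose strand was taken from Gencode vM1, and in mm9 to Gencode vM1 protein-coding transcript starts on NCBIM37. Coordinates are 1-based and were not converted between builds. A gene was bound at a summit within 1 kb, and regions were matched between lists at an overlap of at least 1 bp. E-boxes and the other motif strings (9 in all) were searched on both strands within 50 bp of mm9 summits. Assignment of summits and E-box classes was tested on simulated data. With summits planted around 200 genes, 100% of gene starts were given the right summit or rightly none. Of 300 simulated windows, 100% were given the right E-box class. These windows held only A and T around the planted E-box, if any, so GC-rich windows and windows with both kinds were not covered. Python 3.11.15, numpy 2.4.6, pandas 2.3.3, scipy 1.17.1 and matplotlib 3.10.9 were used.

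The 10 members, the other autophagy lists, the motif strings and all rules were chosen with earlier results of these data known. Named genes were all members, every gene of the 5 autophagy lists, genes starting within 1 kb of a member's promoter summit, and the nearest ranks around the strongest bound member.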

Additional observations from a re-analysis of the deposited data

How the results depend on the processing

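The count of 6 bound genes stayed within 4 to 7 under the other distances, starts and thresholded lists, the mm9 list and each replicate alone. In the unthresholded lists, 10 of 10 had a region within 1 kb for both replicates together (56.1% of all genes), and 7 for either replicate. Of the other autophagy genes, 6 were bound at 500 bp in place of 10, and 9 to 12 under the other mm10 settings of distance, list, replicate and start. The mm9 list gave 12 of the 33 genes matched to its annotation. For these genes, the settings with every 5′ end and the mm9 list were chosen after seeing the data. The share of all genes bound moved from 11.5% to 9.98% at 500 bp, 16.1% at 5 kb, 10.8% in the conservative list and 14.3% in the mm9 list. The median signal of the bound members rose from 385 to 502 at 500 bp, because Gabarapl2 and Atg10 dropped out. Using a single replicate's own list, where signal reached 321 or 328 in place of 640, gave a median of 176 to 209, and 76.1 to 110 at Map1lc3b, 254 to 281 at Gabarap, 76.6 to 101 at Gabarapl2, 269 to 287 at Atg3, 131 to 167 at Atg10 and 222 to 252 at Atg5. The count of 5 promoters with CACGTG was the same with windows of 25 or 100 bp, with every mm9 summit within 1 kb and with the stronger 50% of the mm9 list. The median log2 ratio between replicates was 0.06 after division by each replicate's median and 0.27 with the nearest summit. No paired analysis was possible because there is 1 group. Unknown depth limits every statement about unbound genes: a missing region means that none was listed, not that USF1 was absent.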
